A study of Mus musculus with 2 samples.

Results

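The leukocyte integrins were read on 2 arrays as 10 genes, taken by gene symbol from the platform annotation, out of 18193 genes with a probe set of their own. They were the beta 2 integrin chains Itgal (CD11a), Itgam (CD11b), Itgax (CD11c) and Itgb2 (CD18), the beta 2-like chain Itgb2l, and the other leukocyte chains Itga4, Itgav, Itgb1, Itgb3 and Itgb7. In the silncMDSC culture, C57BL/6 mouse bone marrow cells were given an siRNA labelled as aimed at lncMDSC. In the control siRNA culture they were given a control siRNA. The name lncMDSC is read here as the long non-coding transcript lnc-C/EBPβ, since the study reports these arrays for lnc-C/EBPβ knockdown. The study's reagent list gives shRNAs, not siRNAs, for this transcript, while its figure legends also mention siRNA against it. Both cultures were then grown for 4 days in GM-CSF and IL-6, cytokines under which marrow cells become myeloid-derived suppressor cells (MDSCs). From each culture, 6 µg of total RNA was used for 1 array. With a single array in each group, differences have no replicate check, no test was possible, and each value describes these arrays only. Only 1 siRNA against the target is named in the labels, the cultures were not described as sorted before RNA extraction, and the level of the targeted RNA was not analysed here.

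An integrin is a pair of membrane proteins, 1 alpha and 1 beta chain, that binds other cells or matrix and is switched on from inside the cell. Beta 2 integrins are made by leukocytes and carry their firm adhesion, crossing of vessel walls and uptake of opsonised particles. CD11b, the alpha chain of Mac-1, is part of the surface definition of mouse MDSCs, and CD11c is widely used to mark dendritic cells. The alpha 4 chain pairs with beta 1 or beta 7 to bind VCAM-1 or MAdCAM-1, and alpha v pairs with several beta chains, among them beta 3, to bind matrix proteins such as vitronectin.

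Itgax, and Itgb3 on the brighter of its 2 probe sets, were higher in the silncMDSC culture, each about 1.6-fold, while the other 8 integrins lay within 1.5-fold, and CD11b and CD18 were nearly level. Differences are given on the log2(intensity + 1) scale, with the control siRNA value subtracted from the silncMDSC value. Genes were counted as above the floor where the higher of the 2 intensities of their brightest probe set reached 78.4, the median of all values, and all 10 members did. Of these, 2 were at least 1.5-fold higher (20.0%), beside 0.948% of the 11920 genes above the floor, and 0 were at least 1.5-fold lower, beside 1.42%. The study's methods used a 2-fold threshold together with an adjusted p, which could not be computed here. At 2-fold alone, 0 members were higher, beside 0.168%, and 0 were lower, beside 0.134%. The median difference of the members was 0.02, beside -0.002 for all genes above the floor. Of the 10, 6 differed by less than 0.1, as did 42.9% of all genes. The 10 are few and were chosen with earlier results of these arrays known, so their share beside the background is a description.

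**Figure D1:**
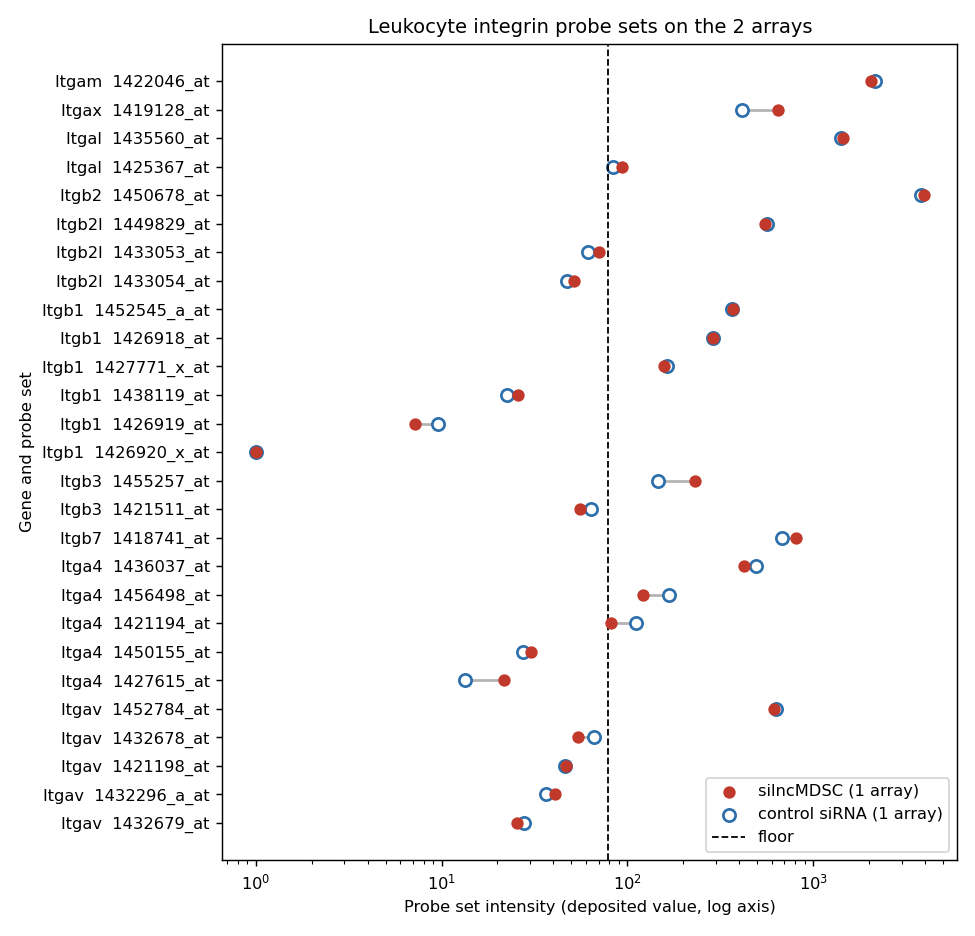
Intensity (x axis, log scale) of each of the 27 probe sets of the 10 integrin genes on the silncMDSC array (red, filled) and the control siRNA array (blue, open), with the floor of 78.4 as a dashed line. Above the floor, the gaps are widest for Itgax and for 1 of the 2 probe sets of Itgb3, and 12 probe sets lie below the floor on both arrays.

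Itgax and Itgam lie next to each other on chromosome 7 in the mouse assembly GRCm38.p6, and Itgax was 1.58-fold higher in the silncMDSC culture while Itgam was nearly level, so the start regions of both are shown, together with that of Itga4, the member with the lowest difference. Each stretch runs from 250 bases before to 50 bases after a gene start, 5′ to 3′ on the gene's own strand, from RefSeq in build GRCm38.p6. Capitals mark matches on either strand to GAGGAA, a core bound by the myeloid factor PU.1, to TGANTCA, bound by AP-1, to TGTGGT, a core bound by RUNX factors, or to TTGCNNAA, bound by C/EBP factors.
Itgax, chr7:128129300-128129599, plus strand: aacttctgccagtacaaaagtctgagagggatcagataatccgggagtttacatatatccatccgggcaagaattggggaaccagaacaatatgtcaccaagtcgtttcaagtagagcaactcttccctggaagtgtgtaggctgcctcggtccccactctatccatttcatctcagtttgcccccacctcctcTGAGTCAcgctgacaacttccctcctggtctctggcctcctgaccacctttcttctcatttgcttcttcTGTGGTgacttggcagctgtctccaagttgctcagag
Itgam, chr7:128062390-128062689, plus strand: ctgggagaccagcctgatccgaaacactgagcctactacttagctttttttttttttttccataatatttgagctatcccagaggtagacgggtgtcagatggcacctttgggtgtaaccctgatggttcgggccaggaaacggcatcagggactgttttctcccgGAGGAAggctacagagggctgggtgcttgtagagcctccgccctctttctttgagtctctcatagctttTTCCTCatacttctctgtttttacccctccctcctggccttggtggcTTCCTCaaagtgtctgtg
Itga4, chr2:79255176-79255475, plus strand: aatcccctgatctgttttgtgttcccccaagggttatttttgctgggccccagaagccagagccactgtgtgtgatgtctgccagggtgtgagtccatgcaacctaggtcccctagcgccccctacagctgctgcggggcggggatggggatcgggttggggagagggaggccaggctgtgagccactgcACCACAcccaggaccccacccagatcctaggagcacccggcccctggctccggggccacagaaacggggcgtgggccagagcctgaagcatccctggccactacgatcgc
The Itgax stretch held 1 AP-1 match, which begins 56 bases before the gene start, and 1 RUNX match. The Itgam stretch held 3 GAGGAA matches and no other, and the Itga4 stretch 1 RUNX match. No matches overlapped. The C/EBP letters were found in none of the 7 members with a promoter sequence, which Itgal, Itgb2 and Itgb3 lacked. With 7 promoters, this does not set the members apart from the share over all promoters, given next. Among 32851 promoters of the same length, 28.3% held GAGGAA at least once and 0.685% at least 3 times, 7.81% held TGANTCA, 16.8% TGTGGT and 10.8% TTGCNNAA. GAGGAA was also found in the promoters of Itgb2l, Itgb1, Itgb7 and Itgav. These matches describe the letters in each window and are not evidence that a factor is bound there.

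Among the alpha chains of the beta 2 family, Itgax stood apart. Itgax encodes CD11c, the alpha chain of p150,95, which binds the complement fragment iC3b and fibrinogen. Its 1 probe set, 1419128_at, had an intensity of 650.6 on the silncMDSC array and 411.9 on the control siRNA array, a log2 difference of 0.66 or 1.58-fold. It ranked 74 from the top of the 11920 genes above the floor, and 1.66% of the 3974 brightest of these genes were at least as far apart in either direction. Itgam encodes CD11b, which as Mac-1 binds iC3b, fibrinogen and ICAM-1. Its 1 probe set, 1422046_at, had 2040 in silncMDSC and 2144 in control siRNA, a log2 difference of -0.07, and 67.7% of the 3974 brightest genes were as far apart or farther. Itgal encodes CD11a, the alpha chain of LFA-1, which binds ICAMs. Its brightest probe set, 1435560_at, had 1442 in silncMDSC and 1412 in control siRNA (log2 difference 0.03), and its dimmer one, 1425367_at, had 94.0 in silncMDSC and 83.6 in control siRNA (0.17). Thus 1 of the 3 alpha chains measured was higher and the other 2 were close to level.

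The shared beta chain Itgb2 was nearly level, as was its relative Itgb2l. Itgb2 encodes CD18, the beta chain shared by LFA-1, Mac-1 and p150,95, and mutations in it cause leukocyte adhesion deficiency in humans. Its 1 probe set, 1450678_at, had 3952 in silncMDSC and 3821 in control siRNA, a log2 difference of 0.05. The difference of Itgax therefore exceeded that of its own beta chain by 0.61 on the log2 scale, whereas Itgam lay 0.12 below Itgb2 and Itgal 0.02 below it. Itgb2l is a close relative of Itgb2. Its brightest probe set, 1449829_at, had 547 in silncMDSC and 565 in control siRNA (log2 difference -0.05), and its other 2 did not reach the floor on either array, 1433053_at with 70.6 in silncMDSC and 61.6 in control siRNA (0.19) and 1433054_at with 51.3 in silncMDSC and 47.5 in control siRNA (0.11). Since Itgb2 and Itgb2l are related in sequence, probes of either may read some RNA of the other, which was not tested.

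**Figure D2:**
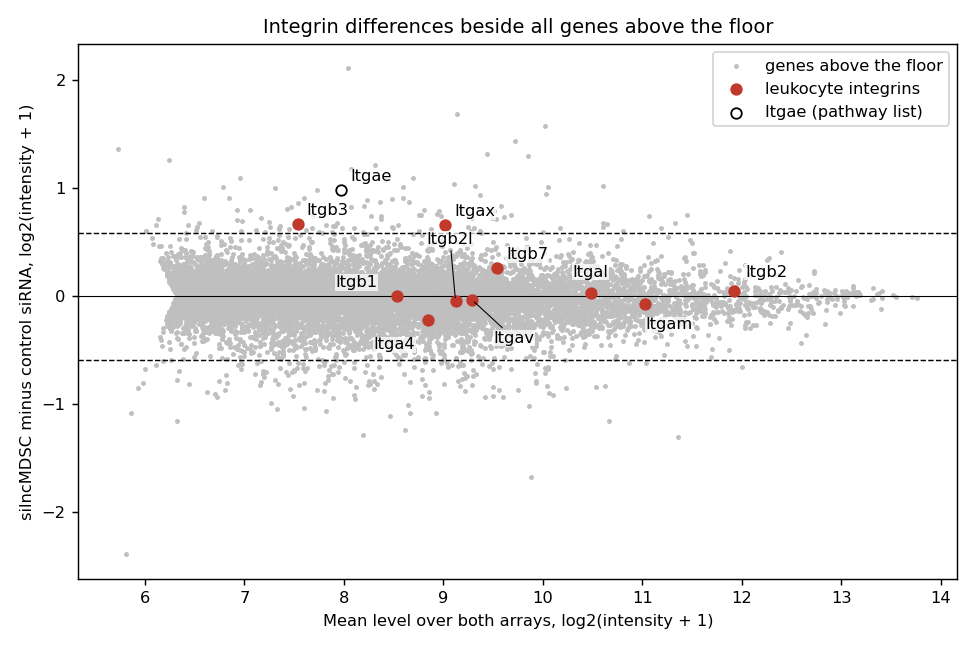
Difference between silncMDSC and control siRNA (y axis, log2) by the average level of the gene on the arrays (x axis, log2(intensity + 1)) for the 11920 genes above the floor (grey), the 10 leukocyte integrins (red) and Itgae (open black). Dashed lines mark 1.5-fold, which Itgax at 0.66, Itgb3 at 0.67 and Itgae at 0.98 exceed.

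Itgb3 was the member farthest from level, but on 1 of 2 probe sets. Itgb3 encodes the beta 3 chain, which pairs with alpha v on many cells and with alpha IIb on platelets and megakaryocytes. Probe set 1455257_at had 232 in silncMDSC and 146 in control siRNA, a log2 difference of 0.67 or 1.59-fold, rank 71 from the top. Probe set 1421511_at had 55.7 in silncMDSC and 63.4 in control siRNA, below the floor on both arrays, a difference of -0.18. The pair thus disagreed in direction. Among the 40 genes at least 1.5-fold apart whose next brightest probe set was below the floor on both arrays, 28 had it on the same side, and among the 107 whose next brightest probe set was above the floor, 99 did. With the mean of both probe sets, Itgb3 differed by 0.24 and was no longer 1.5-fold apart. Its alpha partners differed less, Itgav by -0.03 and Itga2b, which encodes alpha IIb, by 0.15.

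Itga4 was lower on each of its 3 probe sets above the floor, though by less than 1.5-fold. Itga4 encodes the alpha 4 chain of VLA-4 and of the gut homing receptor alpha 4 beta 7. Probe set 1436037_at had 424 in silncMDSC and 495 in control siRNA (log2 difference -0.22). Probe set 1456498_at had 121 in silncMDSC and 168 in control siRNA (-0.47), and 1421194_at had 81.6 in silncMDSC and 111 in control siRNA (-0.44). The remaining 2 were far below the floor on both arrays and differed the other way, 1450155_at with 30.3 in silncMDSC and 27.6 in control siRNA (0.13) and 1427615_at with 21.8 in silncMDSC and 13.4 in control siRNA (0.67). By its brightest probe set, 25.8% of the 3973 genes of middle level were as far apart as Itga4 or farther.

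The beta chains that pair with alpha 4 differed from each other. Itgb7, the beta chain of the gut homing receptor and of alpha E beta 7, was read by 1 probe set, 1418741_at, with 813 in silncMDSC and 678 in control siRNA, a log2 difference of 0.26 or 1.20-fold, and 18.2% of the 3974 brightest genes were as far apart or farther. Itgb1, the beta chain of VLA-4 and the partner of many matrix-binding alpha chains, was level, with 369 in silncMDSC and 368 in control siRNA on 1452545_a_at (0.003), 289 in silncMDSC and 288 in control siRNA on 1426918_at (0.004), and 158 in silncMDSC and 164 in control siRNA on 1427771_x_at (-0.05). Its other 3 probe sets were below the floor, 1438119_at with 25.7 in silncMDSC and 22.5 in control siRNA (0.19), 1426919_at with 7.17 in silncMDSC and 9.53 in control siRNA (-0.37), and 1426920_x_at at the lowest value of the file on both arrays. Itgav, the alpha v chain, was level too, with 616 in silncMDSC and 629 in control siRNA on 1452784_at (-0.03), and its other 4 probe sets stayed under the floor. Of these, 1432678_at had 54.3 in silncMDSC and 66.4 in control siRNA (-0.29), 1421198_at had 46.6 in silncMDSC and 46.2 in control siRNA (0.01), 1432296_a_at had 40.8 in silncMDSC and 36.4 in control siRNA (0.16), and 1432679_at had 25.5 in silncMDSC and 27.8 in control siRNA (-0.12). The alpha 4 and beta 7 chains of 1 receptor thus lay on opposite sides of 0, and 0.48 apart on the log2 scale, while alpha v and beta 1 were 0.03 apart. By the same reading, alpha 4 minus beta 1 was -0.23. Alpha v minus beta 3 was -0.70, with beta 3 read on the brighter of its probe sets.

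Of the 17 further integrin chains listed, 15 were read and 7 were above the floor. The integrin with the largest difference among the chains measured was Itgae, which encodes CD103, the alpha E chain that pairs only with beta 7 and binds E-cadherin. Its brightest probe set had 353 in silncMDSC and 178 in control siRNA, a log2 difference of 0.98 or 1.98-fold, rank 22 from the top, and its second probe set had 113 in silncMDSC and 63.9 in control siRNA, where it was below the floor, a difference of 0.82. The brightest one carries the suffix of probe sets that can read related transcripts. Its partner Itgb7 differed by 0.26, and Cdh1, which encodes E-cadherin, had 2412 in silncMDSC and 1953 in control siRNA (0.30). On their brightest probe sets, the other 6 chains above the floor lay between -0.19 for Itga3 and 0.20 for Itga6, a laminin receptor chain. Itga1 (0.18) and Itgb5 (0.14) lay between them. Other probe sets above the floor gave 0.12 for Itga3, 0.08 for Itga6 and 0.07 to 0.32 for Itgb5.

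Over the whole list of 88 integrin pathway symbols, 80 were read and 64 were above the floor. The unread Fyb1 is another name of Fyb, which was read. Of the 64, 1, Itgae, was at least 1.5-fold higher and 0 were lower, beside 0.948% higher and 1.42% lower among all genes above the floor. The median difference was 0.01, beside -0.002. Both the count and the median are near the background and say nothing particular to these genes. Among the 13 activation genes above the floor, talin Tln1 (0.12), the kindlin of blood cells Fermt3 (0.07), the small GTPases Rap1a (-0.12) and Rap1b (-0.07), the adaptor Skap1 (0.21) and the Rap1 exchange factor Rapgef1 (-0.17) all lay within 1.5-fold, with a median of -0.07. The 5 inhibitors ran from -0.37 for Itgb1bp1, which encodes a binding partner of the beta 1 tail, to 0.20 for the adaptor Dok1. On brightest probe sets, the 11 linkers and cytoskeletal genes had a median of 0.02. Vinculin Vcl (-0.24) and alpha-actinin Actn4 (-0.17) were the farthest out. The 9 kinases and exchange factors had a median of -0.02 by the same reading. The Src family kinase Fgr (0.28) and the exchange factor Vav3 (-0.14) were in front. Other probe sets above the floor reached -0.27 for Lims1, -0.27 for Vav1 and, among the activation genes, 0.40 for Fermt2.

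**Figure D3:**
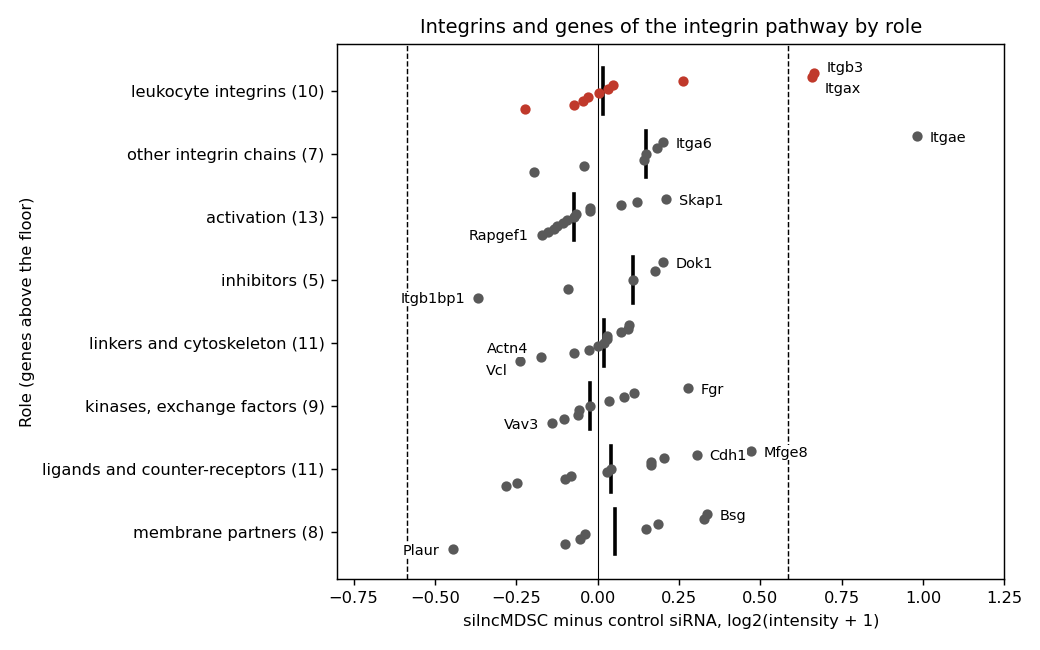
Difference between silncMDSC and control siRNA (x axis, log2) of the 10 leukocyte integrins (red) and of the 64 integrin pathway genes above the floor (grey), by role. Each point is 1 gene, the black bar is the median of the role, dashed lines mark 1.5-fold, and the 2 genes farthest from 0 in each role are named.

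None of the ligands and membrane partners above the floor reached 1.5-fold, a count near the background of 0.948% higher and 1.42% lower. Of the 19 ligands and counter-receptors listed, 17 were read and 11 were above the floor. The beta 2 ligands Icam1 and Icam2 were below control, with 406 in silncMDSC and 482 in control siRNA for Icam1 (-0.25) and 294 in silncMDSC and 357 in control siRNA for Icam2 (-0.28), while Mfge8, which bridges alpha v integrins to dying cells, had 1675 in silncMDSC and 1207 in control siRNA (0.47). Vcam1, the ligand of VLA-4, differed by 0.16 on its brightest probe set and by 0.37 on its 1 other above the floor. Among the 8 membrane partners, Plaur, the urokinase receptor, which associates with Mac-1, had 1680 in silncMDSC and 2289 in control siRNA (-0.45), and Bsg, a partner of beta 1 integrins, had 1474 in silncMDSC and 1168 in control siRNA (0.34). Cd47 differed by -0.05 on its brightest probe set and by -0.30 to 0.14 on its 4 others above the floor.

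The cultures were read for markers of the labelled cells and of other cells that carry these integrins. All 8 myeloid markers were above the floor, 0 of them 1.5-fold apart, 1 above 0 and 7 below it, with a median of -0.01. Their summed intensities were 47062 in silncMDSC and 48015 in control siRNA. That sum is made up mostly of S100a8 (-0.008) and S100a9 (-0.01), and S100a9 gave the highest value on both arrays. Of 10 dendritic cell markers, 9 were read and 8 were above the floor, 3 of them at least 1.5-fold higher (H2-Eb1 0.75, Ciita 0.70 and Ccr7 0.64) and 0 lower, beside 0.948% and 1.42% of all genes, with summed intensities of 16448 in silncMDSC and 11935 in control siRNA, a sum made up mostly of the class II chains H2-Aa, H2-Ab1 and H2-Eb1. The median of the 8 was 0.39, and those within 1.5-fold were H2-Aa (0.41), H2-Ab1 (0.36), Flt3 (0.34), Zbtb46 (0.14) and Cd209a (-0.11), and Xcr1, below the floor on both arrays, differed by -0.35. Of the 8 above the floor, 7 lay on the same side as Itgax and Itgae and 1, Cd209a, on the other. The list was chosen with earlier results of these data known. The part of dendritic cells in the Itgax and Itgae differences was not tested. In RNA from a whole culture, fewer cells of a type and less RNA per cell cannot be told apart. Of 8 megakaryocyte and platelet markers, 7 were read and 6 were above the floor, with summed intensities of 7394 in silncMDSC and 10004 in control siRNA. Of the 6, 3 were above 0, Itga2b (0.15), Gp9 (0.13) and Gp6 (0.09), and 3 below it, Ppbp (-0.62), Pf4 (-0.43) and Gp1bb (-0.004), with a median of 0.04. The sum is made up mostly of the platelet chemokines Pf4 and Ppbp. Pf4 had 5343 in silncMDSC and 7187 in control siRNA, and Ppbp had 1502 in silncMDSC and 2302 in control siRNA. Ppbp was the 1 marker at least 1.5-fold apart, and it was lower, beside 1.42% of all genes. The part of these cells in the Itgb3 difference was not tested. Of 7 macrophage markers, 6 were read and above the floor, with a median difference of -0.24. They ran from -0.69 for Mertk, through -0.52 for Fcgr1, to -0.001 for Adgre1, which encodes F4/80. Mertk was the 1 marker at least 1.5-fold lower, beside 1.42% of all genes. Summed intensities were 7911 in silncMDSC and 8860 in control siRNA. Neutrophil markers summed to 32798 in silncMDSC and 33739 in control siRNA, with 0 of 7 at least 1.5-fold apart. That sum is made up mostly of Ngp, Lcn2, Camp and Ltf. Of the 7, 2 were above 0, Cxcr2 (0.44) and Ngp (0.01), and 5 below it, with a median of -0.08. Ly6g was not read. Mast cell and basophil markers, cells in which beta 7 is found, summed to 6962 in silncMDSC and 6444 in control siRNA, with 0 of 7 at least 1.5-fold apart, Cpa3 at 0.48 and Fcer1a at -0.44. T cell markers summed to 719 in silncMDSC and 691 in control siRNA, with 4 of 5 above the floor and 0 at least 1.5-fold apart. No marker of these lists was at the lowest value of the file on either array.

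**Figure D4:**
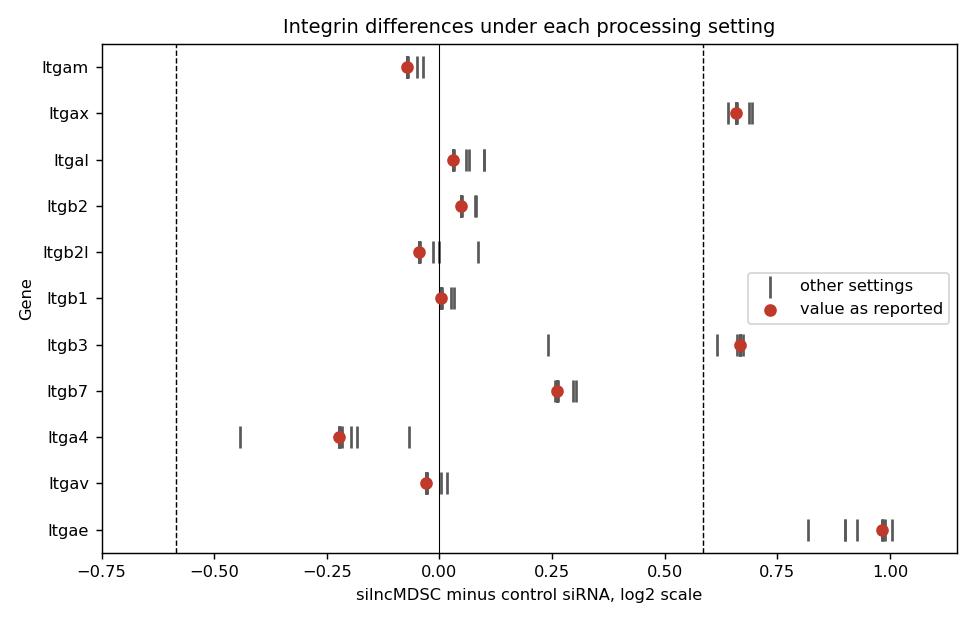
Difference between silncMDSC and control siRNA (x axis, log2) of each leukocyte integrin and of Itgae as reported (red) and under the other processing settings (grey ticks), with 1.5-fold as dashed lines. Itgax runs from 0.64 to 0.69 and Itgae stays at 0.82 or above, Itgb3 drops to 0.24 with the mean of its probe sets, and Itga4 runs from -0.44 to -0.07.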

How the data were processed

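Gene expression was measured in 1 silncMDSC and 1 control siRNA culture on an Affymetrix mouse genome expression array, on which 1 or more probe sets read each transcript. The values deposited by the authors were linear probe set intensities. The submitters' processing notes name RMA without a version. The lowest value was exactly 1 on both arrays, and the sources used here do not state how they were brought to a linear scale. The methods name limma, but with 1 array per group no test could be run and no p is printed.

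After 64 control probe sets were set apart, 45037 remained, of which 34945 had 1 symbol in the platform annotation, 932 several and 9160 none. Of those with 1 symbol, 34741 were found by Entrez identifier in a RefSeq table of GRCm38.p6, and 0 symbols changed. Genes were read from the probe set with the highest mean, and differences used a pseudocount of 1, which makes folds of dim probe sets slightly too small. Levels of different probe sets were set beside each other for the floor, the brightest probe set, groups by level and sums over markers. They were not otherwise compared. The number of arrays limits the precision. The median intensities were 79.0 in silncMDSC and 77.9 in control siRNA, and the robust SD of the differences over the 11920 genes above the floor was 0.18.

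The text gives all 10 members with every probe set, pathway genes at least 1.5-fold apart, the 2 genes farthest from 0 in each role, and marker genes. Other pathway genes were chosen after their values were seen. The members and lists were chosen with earlier results of these data known. Computations used Python 3.11.15, pandas 2.3.3 and statsmodels 0.14.6. They were run on simulated data with 1 probe set per gene and changes planted in brighter genes only. That run did not check the choice among probe sets or changes in dim genes. Protein sequences were not used here.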

Additional observations from a re-analysis of the deposited data

How the results depend on the processing

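The differences were computed again with centred arrays, with the dependence on level taken out by loess (span 0.3), with the columns quantile normalized once more, with 16 as the pseudocount, without a floor or with one at the 75th percentile, with the mean of all probe sets or the median of those above the floor, and without probe sets that can cross-hybridise. The count of members at least 1.5-fold higher stayed at 2 under each of these 9 settings except the mean of all probe sets, which gave 1, since Itgb3 was then at 0.24, and left 8 members above the floor. At a 2-fold threshold it was 0, and the count of pathway genes higher was 0 in place of 1. Counts of members and pathway genes lower were 0 throughout. The members' median ran from 0.02 to 0.09 and that of the pathway list from -0.03 to 0.02. The signs of Itgb2l and Itgav, both near 0, turned under some settings. Itga4 stayed below 0, from -0.44 to -0.07. No paired analysis was possible because each group has 1 array. Steps before the deposited values, such as background correction, could not be varied.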
